A study of Rattus norvegicus with 12 samples.

Results

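Glucocorticoid-responsive genes and the metallothioneins were followed in the renal cortex of male rats given BDCM (bromodichloromethane), a trihalomethane formed when water is chlorinated and toxic to the rodent kidney. The set held 10 of the 15284 genes that could be named on the array, taken by symbol: the glucocorticoid receptor gene Nr3c1, its widely used target genes Fkbp5, Tsc22d3, Sgk1, Zbtb16, Klf9, Tat and Errfi1, and the metallothionein genes Mt1 and Mt2A. Every probe whose RefSeq transcript belonged to one of these genes was taken, which gave 20 of the 61657 non-control probes on the array. RNA came from 12 Sprague-Dawley (Crl:CD(SD)) rats bought at 5 weeks of age, with 1 array per animal. In each of 2 experiments, 3 control rats received corn oil and 3 received BDCM at 200 mg/kg per day, for 4 weeks in every group. All were bled to death under anaesthesia 24 h after the last dose, with CO2-O2 gas (4:1) in the first experiment and with isoflurane in the second. The anaesthetic, the experiment, the array slide and the scan day cannot be told apart when the control groups of the experiments are compared, because every slide and every scan day belonged to 1 experiment.

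Glucocorticoids enter the cell and bind their receptor, a transcription factor held by heat shock proteins and FK506-binding proteins until the hormone arrives. The hormone-bound receptor moves to the nucleus and switches on a set of target genes, among them genes that damp its own signal, genes of glucose and amino acid metabolism and genes of salt transport. Metallothioneins are small cysteine-rich proteins that bind zinc, copper and cadmium. Their genes are induced by metals through the factor Mtf1 and also by glucocorticoids, and kidney cortex and liver are among the tissues richest in them.

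The promoters of both metallothionein genes are shown because they carry, close together, the short motif through which metals act. The 250 bases upstream of the RefSeq start are printed 5′ to 3′ on the gene strand, from RefSeq sequence of rat build GRCr8. Capitals mark each match to the core of the metal response element (TGCACNC or TGCGCNC, searched on both strands). The Mt1 window lies at chr19:10832976-10833225 and the Mt2A window at chr19:10838709-10838958, both on the minus strand.
Mt1: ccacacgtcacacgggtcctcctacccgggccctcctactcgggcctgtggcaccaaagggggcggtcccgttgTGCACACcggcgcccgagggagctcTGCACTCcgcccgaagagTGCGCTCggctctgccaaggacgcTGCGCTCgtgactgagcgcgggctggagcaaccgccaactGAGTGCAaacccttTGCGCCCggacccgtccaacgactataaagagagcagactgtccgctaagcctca
Mt2A: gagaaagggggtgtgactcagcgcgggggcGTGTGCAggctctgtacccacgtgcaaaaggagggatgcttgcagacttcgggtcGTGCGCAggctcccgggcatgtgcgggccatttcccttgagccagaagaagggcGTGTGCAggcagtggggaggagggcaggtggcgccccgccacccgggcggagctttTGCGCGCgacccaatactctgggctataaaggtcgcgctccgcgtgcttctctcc
The Mt1 promoter held 6 matches, 5 of them on the gene strand, and the Mt2A promoter held 4, of which 3 were on the opposite strand. Over the 33469 rat promoter windows of 300 bases in the table (250 before and 50 after the start), 24.2% held at least 1 match, 0.439% at least 4 and 0.0388% at least 6. A full palindromic glucocorticoid response element (AGAACA, any 3 bases, then TGTTCT) was found in 5 of these windows (0.0149%) and a single AGAACA on either strand in 20.7%. None of the 14 windows of 9 member genes (Zbtb16 was not in the table) contained either of them. Of the 12 windows outside Mt1 and Mt2A, 2 held a match to the metal element, 1 in Nr3c1 and 1 in Tsc22d3. A match is only a description of letters in a short window, and its absence says nothing about the receptor.

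Levels are given as log2 of the processed signal relative to the 75th percentile of the same array, so 0 is the level of that percentile and a difference of -1 is a halving. A level of one probe is not compared with that of another, since probes bind with different strength. The 75th percentile ran from 1079.5 to 1476.5 intensity units, and between 41529 and 44714 non-control probes per array were well above background. None of the 20 probes was saturated on any array, and 19 were tested. The only probe of Tat, the tyrosine aminotransferase that is the classical glucocorticoid-induced gene of liver, was not well above background on any of the 12 arrays and gave no value. Differences were tested with limma across all 43275 probes that passed the same filter, with p-values adjusted by the method of Benjamini and Hochberg across this whole set. The 3 arrays per group limit the precision. The p-values rest on the spread between animals of a group, which also holds slide and scan day differences. The main fit held no term for slide or scan day, and treatment was partly tied to them within each experiment. CO2-O2 treated animals 1 and 3 shared slide 2 and scan day 2 with no control. Isoflurane controls 1 and 2 shared slide 3 with no treated animal. Isoflurane treated animal 3 was alone on slide 5 and scan day 4.

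BDCM lowered most of these transcripts. With isoflurane the 5 metallothionein probes fell farthest. With CO2-O2, Mt2A probe 1 differed by -0.63 and Errfi1 by -0.94, neither passing, and over both experiments these 2 probes were close (-0.99 and -0.98). Averaged over both experiments, 14 of the 19 probes fell, 0 rose and 5 did not pass, and the median difference was -0.81. In whole cortex, fewer cells of a type and less RNA per cell cannot be told apart. The treatment changed many transcripts at once: 38.3% of all probes were called in this comparison, 20.4% lower and 17.9% higher, with a median of -0.04. In the isoflurane experiment 10 of 19 probes fell and 0 rose (median -0.95), where 25.9% of all probes were called, 12.8% lower and 13.1% higher. In the CO2-O2 experiment 5 of 19 fell and 0 rose (median -0.63), where 19.7% of all probes were called, 9.86% lower and 9.87% higher. All 3 treated animals lay below all 3 controls at 12 of the 19 probes with CO2-O2 and at 12 with isoflurane, against 21.1% and 22.6% of all probes. They did so in both experiments at 11 of the 19, against 13.0% of all probes. Counted by gene through the brightest probe, 6 of 9 fell in the mean, 5 with isoflurane and 1 with CO2-O2. Probes of 1 gene share their transcript and are not separate evidence. With 1 animal left out in turn, 10 to 15 probes fell over both experiments and 6 to 12 with isoflurane, the lowest without treated animal 2. With CO2-O2 the count dropped to 1 without control 2, control 3 or treated animal 1, and to 0 without treated animal 3. Calls over all probes ran from 14246 to 16684 over both, 6882 to 11421 with isoflurane and 4817 to 9782 with CO2-O2 in these fits.

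**Figure D1:**
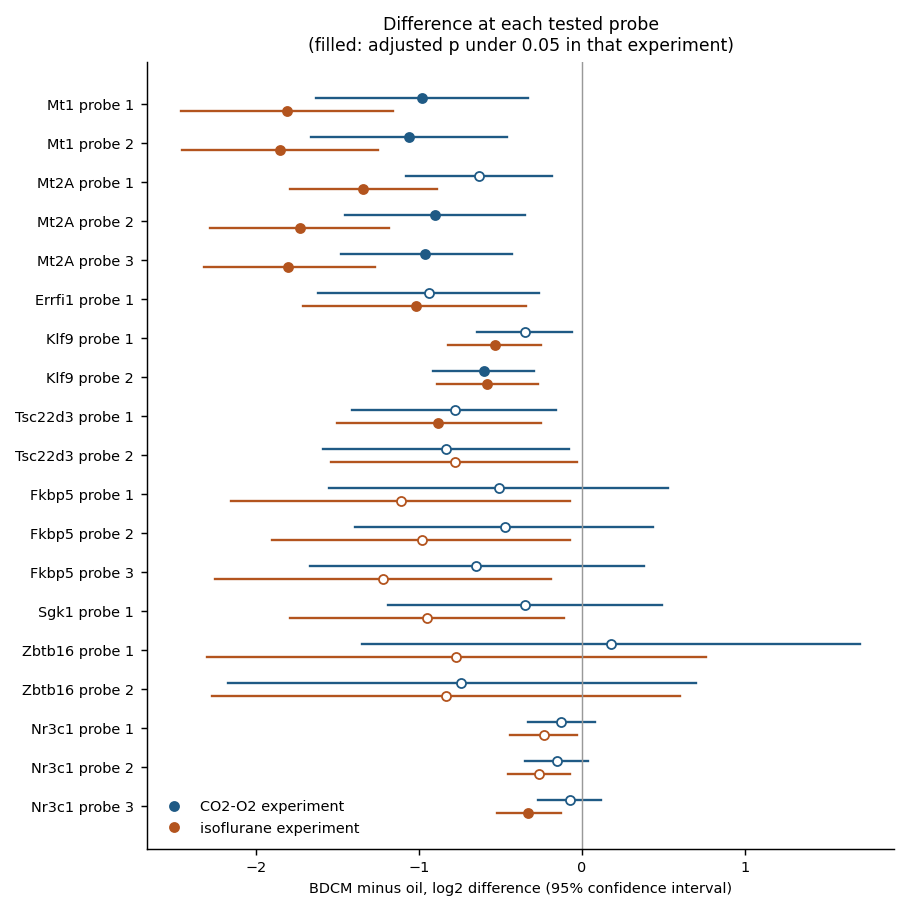
Log2 difference between BDCM and corn oil at each of the 19 tested probes (vertical axis), in the CO2-O2 experiment (blue) and the isoflurane experiment (orange), with 95% confidence intervals from limma. Filled points passed an adjusted p of 0.05 in that experiment; the 5 metallothionein probes lie farthest left with isoflurane, and the only point right of 0 is Zbtb16 probe 1 with CO2-O2 (0.18).

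Mt1 encodes metallothionein 1, one of the main zinc stores of the tubule cell. Its first probe read 8.24, 8.49 and 8.53 in the CO2-O2 controls and 6.99, 7.86 and 7.47 in the BDCM animals of that experiment. In the isoflurane experiment it read 8.64, 8.80 and 8.89 in the controls and 6.79, 6.44 and 7.66 in the treated animals. Control and treated animals did not overlap in either experiment, and the treated animals were spread more widely (SD 0.63 with isoflurane) than their controls (SD 0.13). Mt1 fell 3.51-fold with isoflurane (95% confidence interval 2.24 to 5.51; limma, adjusted p = 0.00169). With CO2-O2 it was 1.97-fold lower (1.26 to 3.09; adjusted p = 0.0406). The second Mt1 probe gave 3.61-fold and 2.08-fold (adjusted p = 0.000951 and 0.0223).

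Mt2A encodes the other broadly expressed metallothionein and lies next to Mt1 on the same chromosome. Its first probe read 7.92, 8.11 and 8.08 in the CO2-O2 controls against 7.24, 7.59 and 7.40 under BDCM. In the isoflurane experiment it read 8.10, 8.27 and 8.39 in the controls against 6.82, 6.48 and 7.42. The groups were again separate in both experiments, and isoflurane BDCM animal 3 was the highest of its group for Mt1 and Mt2A alike. Over both experiments the 3 Mt2A probes fell by 0.99 ± 0.14, 1.32 ± 0.17 and 1.38 ± 0.17 in log2 units (± SE, 6 animals per treatment; limma, adjusted p = 0.000507, 0.00029 and 0.000161). In the same comparison the Mt1 probes fell by 1.40 ± 0.21 and 1.45 ± 0.19 (adjusted p = 0.000564 and 0.000277). Mt1 and Mt2A transcripts are alike in sequence, and how far a probe of one binds the other was not tested. These 5 calls over both experiments were kept in every alternative run but a 2-fold minimum, which Mt2A probe 1 (1.98-fold) missed. Those of single probes in the CO2-O2 experiment were not. Mt1 probe 2 and Mt2A probes 2 and 3 lost theirs there without CO2-O2 control 2 or 3 or treated animal 1 or 3 (adjusted p 0.0524 to 0.096). Mt1 probe 1 lost it without any 1 of the 6 controls, or without treated animal 1 or 3 of the CO2-O2 experiment (0.0559 to 0.116).

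Slides and scan days were unevenly filled, so the values within them are given for the same genes. Slide 1 carried 3 controls and 1 treated animal of the CO2-O2 experiment, where Mt1 probe 1 differed by -0.56 and Mt2A probe 1 by -0.45. Slide 4 carried 1 control and 2 treated animals of the isoflurane experiment, where they differed by -2.27 and -1.74. Scan day 3 held 3 controls and 2 treated animals of the isoflurane experiment, with differences of -2.16 and -1.60. With slide as a fixed block the difference over both experiments was -1.41 for Mt1 and -1.09 for Mt2A. These estimates rest on slides 1 and 4, so on 1 treated animal with CO2-O2 and on 1 control with isoflurane. That control, animal 3, was the highest of its group for both genes. Of the 19 member probes, 9 fell over both experiments when either slide or scan day entered the fit as a block, and 0 with CO2-O2 alone, where 1 treated animal then carries the estimate. Calls over all probes dropped in these fits too, over both experiments to 10392 with slide and 14405 with scan day (from 16558), and with CO2-O2 to 3826 and 4968 (from 8539).

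The estimated fall of the metallothioneins was larger with isoflurane than with CO2-O2 at each of the 5 probes, with a difference of effects between -0.84 and -0.72 on the log2 scale. The test of that difference gave an adjusted p of 0.944 at each of them. Over all 43275 probes it called 0 (0.0%), with 2121 (4.9%) at an unadjusted p below 0.05, and 3 member probes were among those, all of Mt2A. For Mt1 probe 1 the interval of the difference between experiments ran from -1.75 to 0.08. The effects of both experiments are therefore not shown to differ, nor to be alike.

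**Figure D2:**
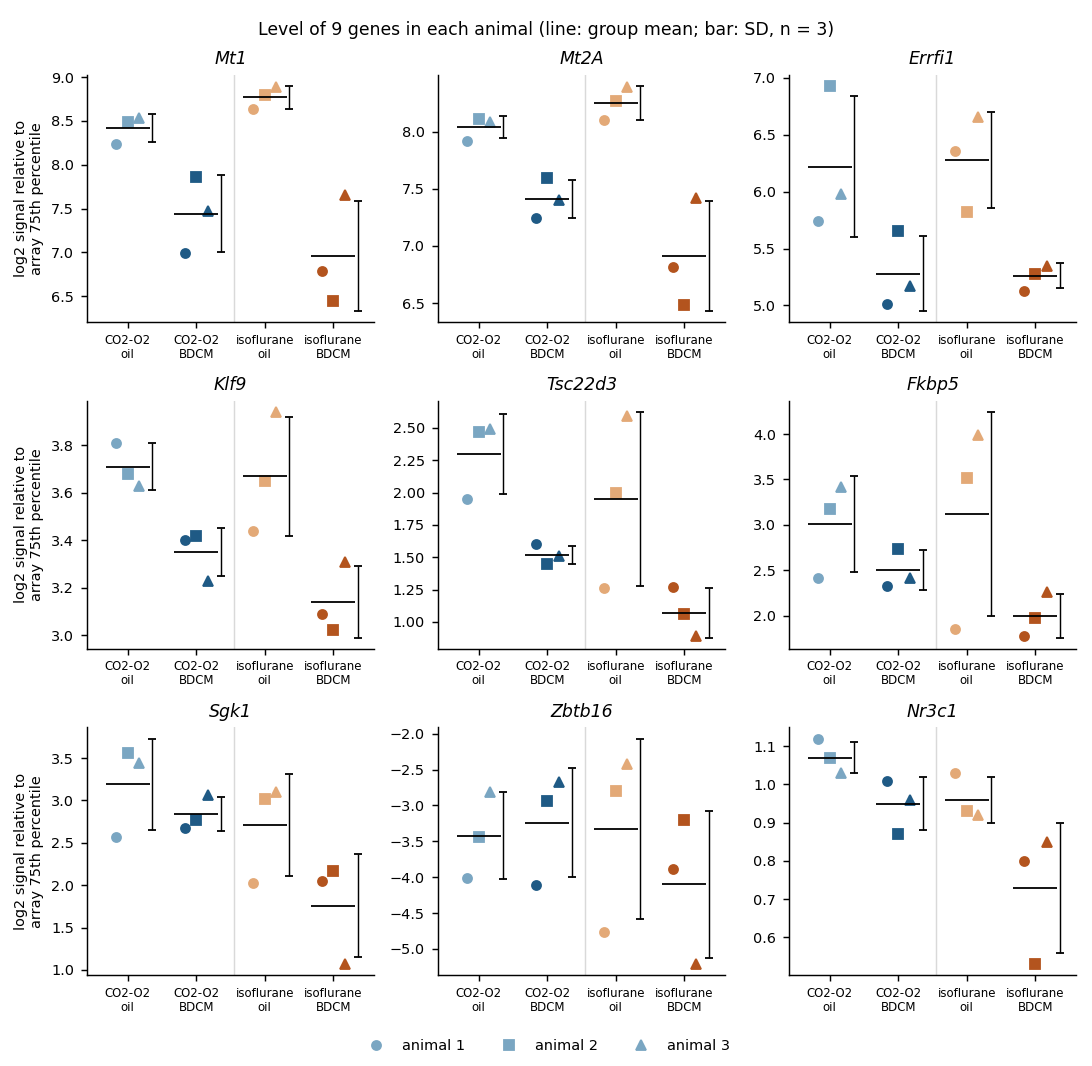
Log2 signal relative to the array's 75th percentile (vertical axes, which do not start at 0 and differ between panels) in each of the 12 animals, by group, for the first probe of 9 genes; lines are group means and bars SD (n = 3). Mt1 and Mt2A separate treated from control animals in both experiments, while Fkbp5, Sgk1 and Zbtb16 overlap. Control 1 is the lowest of the controls in both experiments for these 3 genes and also for Mt1, Mt2A and Tsc22d3.

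Errfi1 encodes Mig6, a feedback inhibitor of the EGF receptor that glucocorticoids induce. Its probe read 5.74, 6.93 and 5.98 in the CO2-O2 controls and 5.01, 5.65 and 5.17 in the treated animals. With isoflurane the controls read 6.36, 5.82 and 6.66 and the treated animals 5.13, 5.28 and 5.35. Every treated animal was below every control of its experiment, although CO2-O2 treated animal 2 (5.65) came close to control 1 (5.74). Errfi1 fell 1.98-fold over both experiments (1.41 to 2.76; limma, adjusted p = 0.00537). The estimates were close, at -0.94 ± 0.31 with CO2-O2 (adjusted p = 0.0559) and -1.02 ± 0.31 with isoflurane (adjusted p = 0.0334). The isoflurane call was lost without control 1 or 3 or any 1 treated animal of that experiment (adjusted p 0.0608 to 0.111). The call over both experiments was lost when the fit was blocked by slide (0.0579) or by scan day (0.0576).

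Klf9 encodes a Krüppel-like transcription factor that responds to both glucocorticoid and thyroid hormone. Its brighter probe read 3.81, 3.68 and 3.63 against 3.40, 3.42 and 3.23 with CO2-O2, controls first. With isoflurane it read 3.44, 3.65 and 3.94 against 3.09, 3.02 and 3.31. The groups did not overlap in either experiment, although isoflurane treated animal 3 (3.31) came close to control 1 (3.44). Animals of a group spanned 0.19 in each CO2-O2 group, 0.49 in the isoflurane controls and 0.29 in the isoflurane treated animals. Klf9 fell by 0.44 ± 0.09 and 0.59 ± 0.10 at its 2 probes over both experiments (limma, adjusted p = 0.00377 and 0.0011), a change of 1.36-fold and 1.51-fold. Both calls were kept in every alternative run except the 2-fold minimum, which neither probe reached. At probe 2 the CO2-O2 difference was -0.60 (adjusted p = 0.0145) and the isoflurane difference -0.58 (adjusted p = 0.0128). The CO2-O2 call at that probe was lost without control 1 (0.0555) or treated animal 3 (0.0577), and the isoflurane call at probe 1 (adjusted p = 0.0139) without treated animal 2 (0.055).

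Tsc22d3 encodes GILZ, a leucine zipper protein through which glucocorticoids curb inflammation. It read 1.95, 2.47 and 2.49 in the CO2-O2 controls against 1.60, 1.45 and 1.51 in the treated animals, without overlap. Under isoflurane its values were 1.26, 2.00 and 2.59 against 1.27, 1.06 and 0.89, so control 1 lay inside the treated range. Over both experiments Tsc22d3 fell 1.78-fold at probe 1 (1.31 to 2.41; limma, adjusted p = 0.00835) and 1.75-fold at probe 2 (adjusted p = 0.0225). The difference at probe 1 was -0.78 ± 0.28 with CO2-O2 (adjusted p = 0.0783). It was -0.88 ± 0.28 with isoflurane (adjusted p = 0.0442), a call that ended when any 1 animal was left out, control 1 of either experiment excepted (0.0537 to 0.127). Over both experiments neither probe passed with scan day as a block (0.0538 and 0.128), and probe 2 no longer passed without control 2 (0.0542) or treated animal 3 (0.0524) of the CO2-O2 experiment.

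Fkbp5 encodes FKBP51, a co-chaperone that lowers the affinity of the receptor for its hormone and is one of the most sensitive glucocorticoid targets. It read 2.42, 3.18 and 3.42 in the CO2-O2 controls and 2.33, 2.74 and 2.42 in the treated animals. In the isoflurane experiment Fkbp5 read 1.85, 3.52 and 3.99 in the controls and 1.78, 1.97 and 2.26 under BDCM. The groups overlapped in both experiments, because control 1 of each was at the level of the treated animals while the other 2 controls were above all of them. The isoflurane controls spanned 2.14 on the log2 scale and the treated animals of that experiment 0.48. Over both experiments the 3 probes differed by -0.81 ± 0.33, -0.73 ± 0.29 and -0.93 ± 0.33 (limma, adjusted p = 0.0771, 0.0732 and 0.0451), so Fkbp5 passed at 1 probe of 3. Without isoflurane control 1 the other 2 probes passed as well, with differences of -1.13 and -0.99 (adjusted p = 0.00241 and 0.00481). The call at probe 3 was lost in 16 of 26 alternatives, among them each of 10 animals left out in turn, all but CO2-O2 control 1 and isoflurane control 1 (0.0547 to 0.1).

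Sgk1 encodes the serum- and glucocorticoid-regulated kinase, which keeps sodium channels at the surface of tubule cells. It read 2.57, 3.56 and 3.44 in the CO2-O2 controls and 2.68, 2.77 and 3.07 in the treated animals. With isoflurane it read 2.02, 3.02 and 3.10 against 2.05, 2.17 and 1.07. Here too control 1 of each experiment lay within or below the range of the treated animals, and the other 2 controls lay above it. The lowest value of all belonged to isoflurane BDCM animal 3. Sgk1 did not pass over both experiments (-0.65 ± 0.27; limma, adjusted p = 0.0804), and its interval ran from -1.24 to -0.05. It passed without CO2-O2 control 1 (-0.80; 0.0383) or isoflurane control 1 (-0.82; 0.029).

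Zbtb16 encodes PLZF, a zinc finger repressor that is nearly silent in many tissues until glucocorticoid is given. Its first probe, well above background on all arrays, read -4.01, -3.44 and -2.81 in the CO2-O2 controls and -4.11, -2.94 and -2.68 under BDCM. In the isoflurane experiment the probe read -4.77, -2.80 and -2.42 in the controls and -3.89, -3.20 and -5.21 under BDCM. Animals of 1 group differed by up to 2.35, and the groups overlapped in both experiments. Neither probe of Zbtb16 passed over both experiments (-0.30 ± 0.49 and -0.78 ± 0.46; limma, adjusted p = 0.662 and 0.203). The probes differed in sign with CO2-O2 (0.18 and -0.74). The second was well above background on 9 of 12 arrays, with 2 of the 3 isoflurane controls and 1 of the 3 isoflurane treated animals, and it passed only without isoflurane control 1 (-1.17; adjusted p = 0.026).

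**Figure D3:**
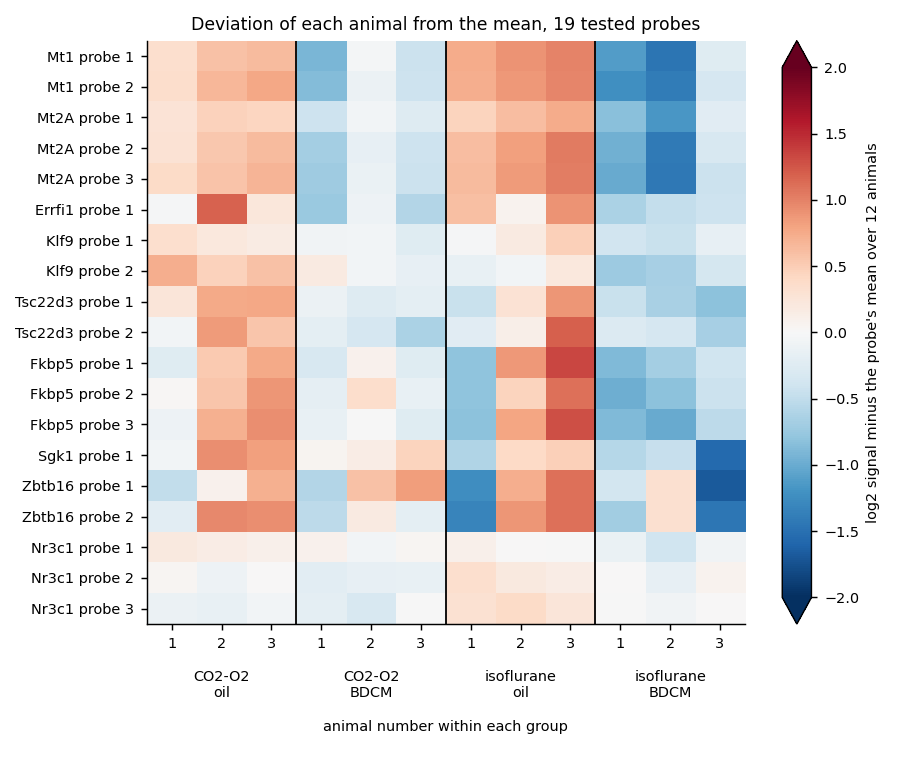
Log2 signal of each animal (columns, by group) minus the mean of the probe over the 12 animals (rows, 19 tested probes); red is above and blue below the mean. Control 1 of the isoflurane experiment is blue for Fkbp5, Tsc22d3, Sgk1 and Zbtb16, whose other 2 controls there are red, and red for Mt1 and Mt2A.

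The lowest control was the same animal for many of these genes. Control 1 was the lowest CO2-O2 control at 14 of the 19 probes, against 36.6% of all probes tested. Control 1 was also the lowest isoflurane control at 15 of 19, against 37.6% of all probes. These 2 animals share only a number. The probes of Fkbp5, Tsc22d3, Sgk1 and Zbtb16 made up 8 of those counts in each experiment, and all probes of Mt1 and Mt2A were among them too. The labels used here give no hour of death and no hormone level for any animal, and whether either moved with these levels was not tested.

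Nr3c1 encodes the receptor itself and changed little. Its brightest probe read 1.12, 1.07 and 1.03 in the CO2-O2 controls and 1.01, 0.87 and 0.96 in the treated animals. With isoflurane it read 1.03, 0.93 and 0.92 against 0.80, 0.53 and 0.85. The treated animals were below their controls in both experiments, by small amounts. The 3 probes fell by 0.18, 0.21 and 0.20 over both experiments (SE 0.06 at each; limma, adjusted p = 0.05, 0.0225 and 0.0272), or 1.13-fold to 1.15-fold. The first lay at the threshold itself and was lost in 23 of 28 alternatives, and all 3 were lost with normexp background correction (differences of -0.10 at probe 2 and -0.15 at probe 3). None of the 3 passed with slide as a block (0.111, 0.167 and 0.0694), nor did probe 2 with scan day (0.0537). Without CO2-O2 control 1 or 3 or isoflurane control 1 none of the 3 passed (0.0502 to 0.108), and probe 3 did not pass without CO2-O2 treated animal 1 or 2, isoflurane control 2 or isoflurane treated animal 2 either (0.0509 to 0.0635). Probe 1 passed with 1 animal left out only where that was isoflurane treated animal 3 (0.0314).

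Over both experiments 20.4% of all probes were called lower and 17.9% higher. Of 12 tested genes of the receptor's partners and of steroid handling, 4 fell, 2 rose and 6 did not pass there. Only 2 fell without CO2-O2 control 2 or 3, isoflurane control 1 or isoflurane treated animal 2, or with slide as a block, and 3 fell and 4 rose without CO2-O2 treated animal 2. H6pd, which supplies the cofactor for making active corticosterone, fell by 0.69 ± 0.11 (limma, adjusted p = 0.000759). Hsd11b1, the enzyme that uses that cofactor, fell by 0.46 ± 0.11 (adjusted p = 0.00995). Hsd11b2, which inactivates corticosterone in the distal nephron, differed by -0.13 (adjusted p = 0.297). Fkbp4, the chaperone that carries the receptor to the nucleus, fell by 0.36 and the mineralocorticoid receptor Nr3c2 by 0.27 (adjusted p = 0.0338 and 0.0258). The other 2 probes of Fkbp4 did not pass (-0.11 and -0.15; adjusted p = 0.483 and 0.306), nor did 1 of the other 2 of Nr3c2 (-0.27; 0.295). Abcb1a, an efflux pump that also exports steroids, rose 2.70-fold and the receptor co-chaperone Ptges3 1.29-fold (adjusted p = 0.000449 and 0.00291).

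Among 26 other tested genes known to be induced by glucocorticoids, 12 fell, 2 rose and 12 did not pass, with a median of -0.25 against -0.04 for all probes. Of all probes, 20.4% were called lower and 17.9% higher. The clock gene Per1 read -1.61, -1.09 and -0.95 in the CO2-O2 controls against -2.28, -2.33 and -2.99, and -2.09, -1.25 and -1.26 in the isoflurane controls against -2.60, -2.66 and -3.03. Its treated animals were all below their controls, and control 1 was again the lowest control of each experiment. A second Per1 probe stood at -0.37 over both experiments and did not pass (limma, adjusted p = 0.0935). Pck1, the gate enzyme of gluconeogenesis, fell 2.48-fold (limma, adjusted p = 0.00215) and glutamine synthetase Glul 1.90-fold (adjusted p = 0.00073). Against this direction, Igfbp1, a binding protein for insulin-like growth factors, rose 3.35-fold and the lipase inhibitor Angptl4 1.91-fold (adjusted p = 0.000355 and 0.00648). With 1 animal left out in turn, 11 to 15 genes of the list fell and 2 to 3 rose. With the replicate number as a block 9 fell and 2 rose. The number that fell was lowest with slide as a block in the isoflurane experiment and with scan day as a block in the CO2-O2 experiment. There 1 control or 1 treated animal carries the estimate. Liver expresses many of the same genes, and the albumin signal (Alb, on the same log2 scale) ran from -1.45 to 1.66 in the CO2-O2 experiment and from -8.08 to -0.70 with isoflurane. The albumin groups overlapped within each experiment. Without the isoflurane animals highest in albumin (control 3 and treated animal 1, a choice made after seeing the data), 12 genes of the list fell and 2 rose over both experiments. With isoflurane 5 then fell instead of 8, and with CO2-O2 7 instead of 8. Of the 19 member probes, 11 fell without these animals over both experiments and 5 with isoflurane, all of Mt1 and Mt2A. Of all probes, 14916 and 8682 were then called (from 16558 and 11204). The CO2-O2 animals, whose albumin signal reached higher values, all stayed in these fits. The part of liver RNA in these changes was not tested.

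Of 15 tested genes of zinc and metal handling, 5 fell, 3 rose and 7 did not pass over both experiments. Of all probes, 20.4% were called lower and 17.9% higher there. Slc30a2, a zinc transporter that loads vesicles and is a target of Mtf1, read 3.70, 3.79 and 3.86 against 3.22, 2.59 and 2.66 with CO2-O2 and 3.71, 3.93 and 3.96 against 2.60, 1.77 and 2.55 with isoflurane. It fell 2.40-fold without overlap (limma, adjusted p = 0.000214). Slc39a8, which imports zinc, manganese and cadmium, fell 2.23-fold (adjusted p = 0.000468), and the zinc exporter Slc30a1, another Mtf1 target, 1.41-fold (adjusted p = 0.00168). Mtf1 itself fell by 0.24 (adjusted p = 0.0426). Slc39a14, an importer of zinc and iron, rose 1.68-fold, and the importers Slc39a6 and Slc39a1 rose 1.46-fold and 1.15-fold (adjusted p = 0.00162, 0.00315 and 0.0108). The brain form of metallothionein, Mt3, differed by 0.51 (adjusted p = 0.0603), and its other probe rose by 0.48 (adjusted p = 0.0361). One probe each of Slc39a14 (0.35) and Slc39a1 (0.11) did not pass (adjusted p = 0.105 and 0.154). Slc39a4 stood at 0.48 with CO2-O2 (adjusted p = 0.0926) and -1.14 with isoflurane (adjusted p = 0.00174), but the difference between the experiments did not pass (adjusted p = 0.533).

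The remaining lists surround single members. Their counts stand beside 20.4% of all probes called lower and 17.9% called higher over both experiments. Of 5 tyrosine breakdown enzymes downstream of or beside Tat, homogentisate dioxygenase Hgd and fumarylacetoacetase Fah fell by 0.83 and 0.60, and Hpd rose by 0.46 (limma, adjusted p = 6.83e-06, 0.00351 and 0.00753). With slide as a block 1 of the 5 fell and 0 rose. Of 13 genes of sodium transport around Sgk1, 2 fell and 0 rose, among them the sodium-hydrogen exchanger Slc9a3, which fell by 0.51 (adjusted p = 0.0286), with 1 of its other 2 probes not passing (-0.28; 0.171). Only 1 of the 13 fell with slide as a block, without control 3 of the isoflurane experiment, or without control 1, control 2 or treated animal 3 of the CO2-O2 experiment. Of 12 genes of ErbB signalling around Errfi1, 6 fell and 1 rose, but 2 fell with slide as a block and 3 with scan day, and 2 rose without treated animal 1 of either experiment. Egfr, the receptor that Errfi1 inhibits, fell 1.54-fold (adjusted p = 0.00158), the feedback phosphatase Dusp6 1.59-fold and the ligand Egf 1.42-fold (adjusted p = 0.0112 and 0.0116), while another ligand of the receptor, Areg, rose 6.52-fold (adjusted p = 9.33e-05). Of 12 relatives of Klf9, Zbtb16 and Tsc22d3, 2 fell and 4 rose (1 and 2 with slide as a block), with Klf15, a further glucocorticoid target, down 1.60-fold (adjusted p = 0.00183), Klf2 down 1.23-fold (0.0212), Tsc22d1 up 2.07-fold (3.75e-05), and Klf6 and Klf4 up 1.54-fold and 1.41-fold (0.0172 and 0.0297).

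**Figure D4:**
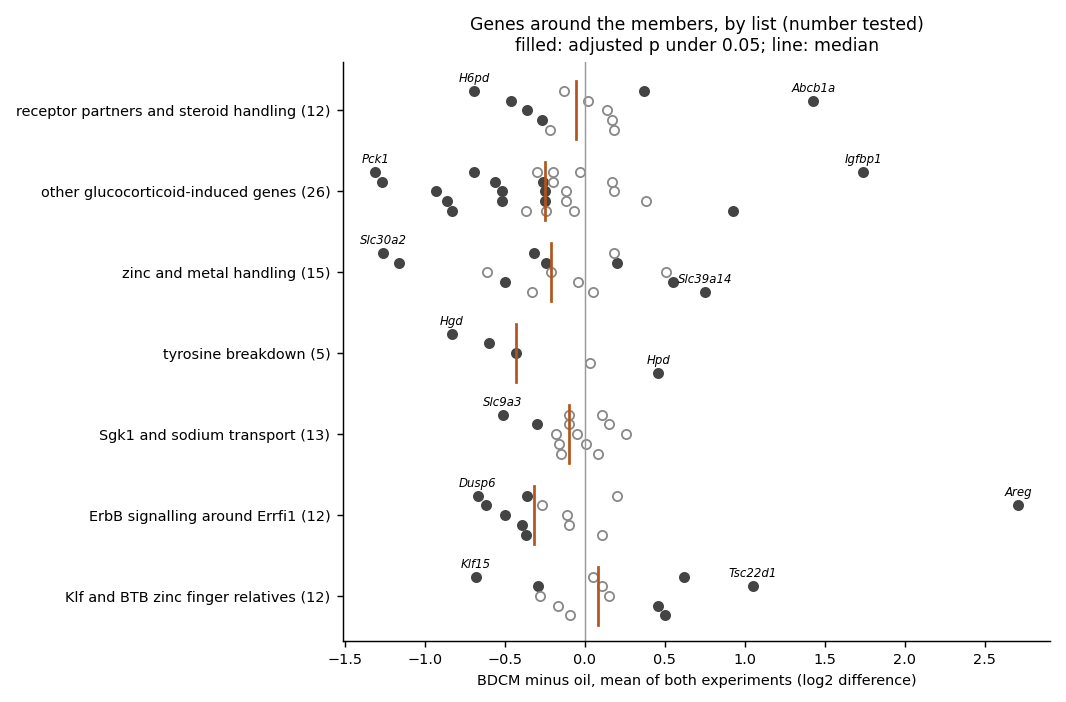
Log2 difference between BDCM and corn oil, mean of both experiments (horizontal axis), for each tested gene of 7 lists (rows, with the number tested); filled points passed an adjusted p of 0.05 and the line is the median of the list. The median is above 0 only for the relatives of Klf9, Zbtb16 and Tsc22d3 (0.08), and filled points stand on both sides of 0 in every list but sodium transport.

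Defining markers of the proximal tubule moved with treatment too. All 6 fell over both experiments, at their brightest probes from Slc34a1 (-0.25) to Aqp1 (-1.31). Another probe stood at -0.64 for Slc34a1 and at -1.63 for Slc22a6. All 3 podocyte markers fell as well (median -0.43), and of 4 collecting duct markers 1 fell and 1 rose. Of all probes, 20.4% were called lower and 17.9% higher over both experiments. The summed level of the proximal tubule markers is given in multiples of the 75th percentile. It was 857 to 913 in the CO2-O2 controls against 512 to 628 under BDCM, and 1000 to 1080 against 504 to 745 with isoflurane. Its part in the fall of Mt1, Mt2A and the other members was not tested. The summed level of 10 hepatocyte markers was 12.7 to 16.7 against 11.4 to 15.2 with CO2-O2 and 7.78 to 10.2 against 6.26 to 8.92 with isoflurane. That sum adds probes of unequal brightness and rests largely on F2, which fell by 0.75 (limma, adjusted p = 0.00177). Member by member, 2 of the 10 rose over both experiments (Apoa2 by 0.97 and Fga by 0.77), 2 fell (F2 and Ahsg) and 6 did not pass. Their median difference was 0.43 over both experiments and 0.80 with CO2-O2, while the summed ranges under BDCM lay lower. Ttr, well above background on 9 of 12 arrays, was lower by 6.57 ± 1.68 in the isoflurane controls than in the CO2-O2 controls (adjusted p = 0.0347). Of the 6 adrenal cortex markers, 3 (Cyp11b1, Star and Mc2r) were not well above background on any array, while 2 were on all 12.

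The control groups of the experiments differed at 2 of the 19 probes, where 10.6% of all probes were called. Of 19, 1 was higher with isoflurane and 1 lower, where 6.97% and 3.62% of all probes were called higher and lower. Nr3c1 probe 3 read -3.00, -3.04 and -2.94 in the CO2-O2 controls and -2.59, -2.51 and -2.64 in the isoflurane controls, a difference of 0.41 ± 0.09 (limma, adjusted p = 0.0173). The other Nr3c1 probes gave -0.11 (adjusted p = 0.478) and 0.25 (adjusted p = 0.0985), so the probes of the gene disagreed. Klf9 probe 2 read 1.17, 0.91 and 1.03 against 0.30, 0.40 and 0.66 with isoflurane, a difference of -0.58 ± 0.14 (adjusted p = 0.0269), while Klf9 probe 1 differed by -0.03 (adjusted p = 0.91). Mt1 and Mt2A stood 0.22 to 0.35 higher in the isoflurane controls, short of the threshold (adjusted p 0.429 to 0.591). Both calls were lost without CO2-O2 control 1 or 2 or isoflurane control 1 or 2 (0.0505 to 0.1), and that of Klf9 without CO2-O2 control 3 too (0.0684). These controls also serve the BDCM comparisons.

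Across the 12 animals Mt2A was the gene closest to Mt1. After centring each gene, the root mean square distance between Mt1 and Mt2A was 0.25 on the log2 scale, the smallest for Mt1 among 11329 genes compared, where Mt1 itself varied by 0.80 about its mean. Next to Mt1 came Fgf13 (0.32), the antigen presentation chain Cd74 (0.32) and the NAD synthesis branch enzyme Acmsd (0.33). For Fkbp5 the closest gene was Tsc22d3 (0.35, with 0.69 for Fkbp5 about its mean), followed by Myzap (0.35), Ehd3 (0.36) and Pgf (0.38). For Zbtb16 it was Sgk1 (0.52, with 0.84 for Zbtb16 about its mean), followed by Map3k6 (0.55), Tekt4 (0.59) and Myzap (0.59). For Tsc22d3 it was Rin2 and the stress-induced Ddit4 (0.20 each, with 0.56 for Tsc22d3 about its mean), then Rgcc and the kinase gene Pim3 (0.21 each). These distances follow the treatment, the experiment and the animal together and carry no test.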

How the data were processed

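The scanner files hold 62976 spots per array. The authors extracted the intensity values with Feature Extraction, version 10.7.1.1 per the file headers and 10.7 in the submitters' processing notes, and left them unscaled between arrays. In the value table that was deposited alongside, the same signals stand as a linear ratio to the 75th percentile of their array. Of its columns, 6 equal their own scanner file and 6 equal another animal of the same CO2-O2 group (21076 probes compared), so animals are numbered by their scanner files. Probe annotation refers to build rn4. Of 33356 probes that carry an accession, 27460 were named by 1 symbol of a RefSeq table (assembly GRCr8).

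Log2 signals minus the 75th percentile entered limma (3.58.1, under R 4.3.3) with 1 mean per group. Outlier spots and 84 spike-in probes were left out, and 43275 of 61573 probes were kept for being well above background throughout 1 or more groups. Tables and figures were made with Python 3.11.15, pandas 2.3.3 and matplotlib 3.10.9. Calls are at an adjusted p of 0.05. The fit was tested on simulated data.

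Members, gene lists and the naming rule were chosen with earlier results of these data known. The rule takes from each list up to 3 genes per direction over both experiments and up to 3 for the controls, and the 4 nearest profiles of Mt1, Fkbp5, Zbtb16 and Tsc22d3 over the 12 arrays. Nr3c2, Hsd11b2, Mt3, Mtf1 and Slc39a4 were named after their values were seen. Where a gene had several probes, the brightest stood for it in the lists. Alternatives changed the scaling, background correction, filter, probe choice, model, block, threshold and animals. Some genes of the lists are counted but not reported by name here. The sources used here state no RNA integrity.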

Additional observations from a re-analysis of the deposited data

How the results depend on the processing

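The falls of Mt1, Mt2A and Klf9 over both experiments kept their direction and their call in every alternative run except the 2-fold minimum, which Klf9 and Mt2A probe 1 did not reach. The main counts of member probes called were 5 with CO2-O2, 10 with isoflurane, 14 over both, 0 for the difference and 2 between controls. With CO2-O2 the count was 3 with no filter, 1 with 1 probe per gene, 3 with the mean of probes, 0 when blocked by slide or by scan day, 0 at an adjusted p of 0.01 and 1 with a 2-fold minimum. With isoflurane it was 5 with 1 probe per gene or the mean of probes, 5 at 0.01 and 6 with a 2-fold minimum. It was also 5 without control 3 and treated animal 1, which have the most albumin signal of that experiment (chosen after seeing the data). Over both it was 5 with 1 probe per gene, 6 with the mean of probes, 9 with either block, 9 at 0.01 and 4 with a 2-fold minimum. Between controls it was 1 with normexp and 1 without those isoflurane animals. It was 0 with 1 probe per gene, the mean of probes, a threshold of 0.01 or a 2-fold minimum. Counts over all probes are not reported here with no filter, 1 probe per gene, the mean of probes, normexp or the stricter thresholds. The member counts at those settings cannot be set against a share of all probes. Leaving out 1 animal in turn gave 0 to 7 with CO2-O2, 6 to 12 with isoflurane, 10 to 15 over both and 0 to 2 between controls. Zbtb16 probe 1 changed sign over both experiments with scan day as a fixed block (0.13), and with CO2-O2 in the mean of probes (-0.28), without CO2-O2 control 1 (-0.12) and without CO2-O2 treated animal 3 (-0.10), within a CO2-O2 range of -0.12 to 0.61 over the animals left out. It passed nowhere. Causes were not tested, except that 1 probe per gene and the mean of probes test fewer member features. Over all probes, the main counts of 8539 with CO2-O2 and 11204 with isoflurane became 3826 and 3253 with slide as a fixed block, and the 4583 between controls ran from 1816 to 5103 with 1 animal left out. Median scaling moved the median of all probes between controls from 0.04 to -0.07. Slide and scan day could not be fitted as blocks between controls.

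The replicate numbers did not pair the animals: same-numbered deviations correlated between -0.03 and 0.06. With the number as a replicate block, 7 member probes were called with CO2-O2, 9 with isoflurane, 12 over both and 0 for the difference. Of all probes, 5866, 8398, 14305 and 0 were called in that fit, from 8539, 11204, 16558 and 0. The numbers of the value table pair the same animals within each experiment and are no separate check. Between controls, fitted on those 6 arrays alone, the replicate block called 0 of the member probes and 0 of all probes, against 2 and 5569 in the same arrays without it.

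With 3 arrays per group, small differences such as those of Nr3c1 lie at the limit of what these data resolve, and the wide intervals of Fkbp5, Sgk1 and Zbtb16 leave room for changes of 2-fold and more. Tat could not be measured, and probe 2 of Zbtb16 lies near background.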

Other observations

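Among the genes around the members, some differed between the oil controls of the experiments, where anaesthetic, experiment, slide and scan day cannot be told apart. Of all probes, 6.97% were called higher and 3.62% lower with isoflurane, and 0 with the replicate number as a block. By list, 1 of 26 glucocorticoid-induced genes was higher and 1 of 15 metal handling genes lower. Of 13 sodium transport genes 1 was higher and 2 lower, and of 12 relatives of Klf9, Zbtb16 and Tsc22d3 2 were lower. The remaining lists around members had none. Other probes of these genes are not reported for this comparison. Slc12a3, the thiazide-sensitive sodium chloride cotransporter of the distal convoluted tubule, was higher with isoflurane (0.81 ± 0.18; limma, adjusted p = 0.02). Tns1, a focal adhesion gene induced by glucocorticoids, was higher too (0.65 ± 0.16; adjusted p = 0.0276). Lower with isoflurane were the transcription factors Klf5 (-0.81; adjusted p = 0.00535) and Klf2 (-0.49; 0.0315). Pdpk1, the kinase that activates Sgk1, was lower by the same comparison (-0.41; 0.0368), as were the ubiquitin ligase Nedd4 (-0.35; 0.0218) and the zinc transporter Slc30a4 (-0.35; 0.0388). Of these genes, Slc12a3, Pdpk1, Nedd4 and Slc30a4 did not pass under BDCM over both experiments at the probe used, although a second Slc12a3 probe fell by 0.33 (adjusted p = 0.0202), while Tns1 and Klf2 fell by 0.52 and 0.29 and Klf5 rose by 0.46 (adjusted p = 0.00446, 0.0212 and 0.00299). The 2 probes of Klf5 disagreed in sign under BDCM, the second standing at -0.12.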
